A study of Mus musculus with 6 samples.

Results

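Vascular calcification is described here through 10 genes: the osteochondrogenic regulators *Runx2*, *Sp7*, *Sox9* and *Msx2*, the ligand *Bmp2*, the pyrophosphate and phosphate genes *Alpl*, *Enpp1* and *Ank*, and the secreted inhibitors of mineral growth *Mgp* and *Spp1*. They were picked by name, and all 10 were found among the 41721 genes of the count table. The measurements come from mouse aortic smooth muscle cells (MASMCs), which are cultured from the abdominal aorta, as 3 cultures of *Pdk4*fl/fl and 3 of *Pdk4*SMKO cells. Per the study's methods, both genotypes carry floxed *Pdk4* alleles, come from 10-week-old male mice on a C57BL/6J background and received tamoxifen, and *Pdk4*SMKO mice also carry a Y-linked *Myh11*-CreERT2 transgene, whose promoter drives Cre in smooth muscle cells. All cultures were treated with angiotensin II (Ang II), for which the methods give 1 μM for 48 h and cells of passages 4 to 8. No vehicle-treated library was analysed here, so the comparison is between genotypes under Ang II. The study calls the 3 cultures of a genotype biological replicates, without stating whether each came from its own mouse, so the p-values measure the spread between these cultures.

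In calcifying arteries, smooth muscle cells can take up part of the programme of bone and cartilage cells. RUNX2 and SP7 act in sequence as the master transcription factors of osteoblasts, SOX9 is the master factor of chondrocytes, and MSX2 and BMP2 act in the bone morphogenetic protein (BMP) pathway, which drives bone formation. Mineral growth is held back by pyrophosphate, which ENPP1 makes from ATP outside the cell and ANK moves out of the cell, and which tissue-nonspecific alkaline phosphatase, the product of *Alpl*, breaks down to phosphate. Matrix Gla protein (*Mgp*) and osteopontin (*Spp1*) are secreted proteins that inhibit the growth of calcium phosphate crystals.

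Promoters of 6 of the 10 genes were found in the RefSeq table of the GRCm38.p6 assembly, 8 windows in all, each running from 250 bases before to 50 bases after a transcription start. *Sp7*, *Sox9*, *Bmp2* and *Mgp* had no entry. The windows were searched on both strands for 3 sets of letters, which do not overlap one another as written: TGTGGT, bound by RUNX factors, GGCGCC, bound by SMAD1 and SMAD5, and TGANTCA, bound by AP-1. They occur in 16.8%, 11.9% and 7.81% of the 32851 promoters of the table. The RUNX letters were present in 1 of the 2 *Spp1* windows, in the *Enpp1* window and 3 times in the *Runx2* window. These 3 promoters are shown because RUNX2 is itself one of the 10 genes, and their RUNX letters are in capitals, here as ACCACA, the reverse complement.
Spp1 (chr5:104434861-104435160, plus strand): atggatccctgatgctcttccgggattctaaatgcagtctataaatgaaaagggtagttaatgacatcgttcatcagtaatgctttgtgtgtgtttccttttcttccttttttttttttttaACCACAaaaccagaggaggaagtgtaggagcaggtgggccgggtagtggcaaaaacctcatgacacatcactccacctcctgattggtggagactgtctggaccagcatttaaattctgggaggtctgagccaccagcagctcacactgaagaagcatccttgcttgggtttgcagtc
Enpp1 (chr10:24712110-24712409, minus strand): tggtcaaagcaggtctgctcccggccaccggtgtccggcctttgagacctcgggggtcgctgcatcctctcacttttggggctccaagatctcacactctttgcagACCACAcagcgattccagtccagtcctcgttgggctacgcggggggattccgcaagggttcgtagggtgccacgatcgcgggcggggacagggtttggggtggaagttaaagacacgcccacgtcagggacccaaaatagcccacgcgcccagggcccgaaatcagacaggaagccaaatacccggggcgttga
Runx2 (chr17:44814578-44814877, minus strand): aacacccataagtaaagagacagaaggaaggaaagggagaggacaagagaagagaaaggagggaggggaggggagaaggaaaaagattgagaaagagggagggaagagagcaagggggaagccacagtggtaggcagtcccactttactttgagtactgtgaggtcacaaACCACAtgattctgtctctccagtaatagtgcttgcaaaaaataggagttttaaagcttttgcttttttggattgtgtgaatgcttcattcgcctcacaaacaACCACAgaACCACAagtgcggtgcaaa
Counted from the start site, the letters begin at base -128 in *Spp1*, at -144 in *Enpp1* and at -80, 24 and 32 in *Runx2*. The SMAD letters occurred 3 times in the *Ank* window and once in 1 of the 2 *Alpl* windows, and the AP-1 letters in none of the 8. A match is a description of the sequence and not a measured binding site.

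Between 16526044 and 22481670 reads per library were counted on genes, and a count of 3, taken as the floor of detection, corresponded to 0.132 to 0.227 CPM (the counts of a gene per 1e6 scaled reads) after scaling by edgeR's TMM method. Floors and counting intervals cover counting error only. *Pdk4*, the targeted gene, was at 38.0, 35.1 and 31.9 CPM in *Pdk4*fl/fl and 4.83, 9.06 and 6.92 CPM in *Pdk4*SMKO cells (log2 fold change -2.34, standard error 0.22, edgeR quasi-likelihood adjusted p = 4.5e-06). The genotypes stood far apart, with a lowest correlation of 0.981 between libraries of a genotype and a highest of 0.748 between genotypes. *Xist*, a marker RNA of the inactive X chromosome in female cells, was at 0.266 CPM in *Pdk4*fl/fl and 19.9 CPM in *Pdk4*SMKO cells (log2 fold change 6.23). For *Pdk4*SMKO cells this is at odds with the male mice and the Y-linked transgene of the methods, while *Pdk4* was lower there. No Y-linked gene is reported here, so the sex of the cultures was not settled. Any difference in sex cannot be told apart from genotype in these libraries. Of 8 contractile markers of smooth muscle, 4 were higher and 3 lower in *Pdk4*SMKO cells. By the rule given below, 32.8% of all tested genes were higher and 26.5% lower. *Acta2*, smooth muscle actin, averaged 233 and 701 CPM in the 2 genotypes, and *Myh11*, smooth muscle myosin, 0.613 and 2.39 CPM. The lower markers were *Tagln*, from 253 to 52.7 CPM, *Smtn*, from 280.0 to 57.5 CPM, and *Cnn1*, from 19.5 to 6.88 CPM (log2 fold changes -2.26, -2.28 and -1.495). *Cnn1* was at -2.56 without *Pdk4*SMKO replicate 1 and not past the threshold, at -0.88, with scaling by library size alone. All 7 tested mesothelial markers were higher in *Pdk4*SMKO cells, while the 3 tested endothelial markers were lower. Some of them passed the low-count filter only through the genotype where they were higher, and so could be called in 1 direction only. Examples are *Krt18*, with 0, 0 and 1 counts in *Pdk4*fl/fl, and *Erg*, with 1, 0 and 0 in *Pdk4*SMKO libraries. Summed over all 8 genes of each list, tested or not, the mesothelial markers were at 74.2 to 99.99 against 723 to 1325 CPM and the endothelial markers at 17.4 to 26.3 against 2.94 to 5.66 CPM. In bulk RNA, fewer cells of a type and less RNA per cell cannot be told apart.

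Genes counted as called when their fold change was 2 or more and their p in edgeR's quasi-likelihood test, adjusted by Benjamini-Hochberg, under 0.05, among 14085 genes left by edgeR's low-count filter. By this rule 59.3% of all tested genes were called, 26.5% lower and 32.8% higher in *Pdk4*SMKO cells (3733 and 4616 genes). With scaling by library size alone the split was 2390 lower and 6184 higher, since that scaling raised the log2 fold change of the median gene by 0.60. Upper-quartile scaling raised it by 0.21. Of the 10 calcification genes, 7 passed the filter, of which 2 were lower (*Runx2* and *Sox9*), 4 higher (*Msx2*, *Enpp1*, *Mgp* and *Spp1*) and 1 (*Ank*) not past the threshold. *Bmp2* and *Alpl* had too few counts to be tested, and *Sp7* had none. *Msx2*, with 0 counts in every *Pdk4*fl/fl library, passed the filter only through *Pdk4*SMKO libraries and could only count as higher. The same holds, in either direction, for genes of the lists below that are near 0 counts in 1 genotype. The genotypes did not overlap in 6 of the 7, against 81.8% of all tested genes, with 4 of the 7 higher (43.5% of all) and 2 lower (38.3% of all) in every *Pdk4*SMKO culture. Their median log2 fold change was 2.01, against 0.12 over all tested genes.

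**Figure D1:**
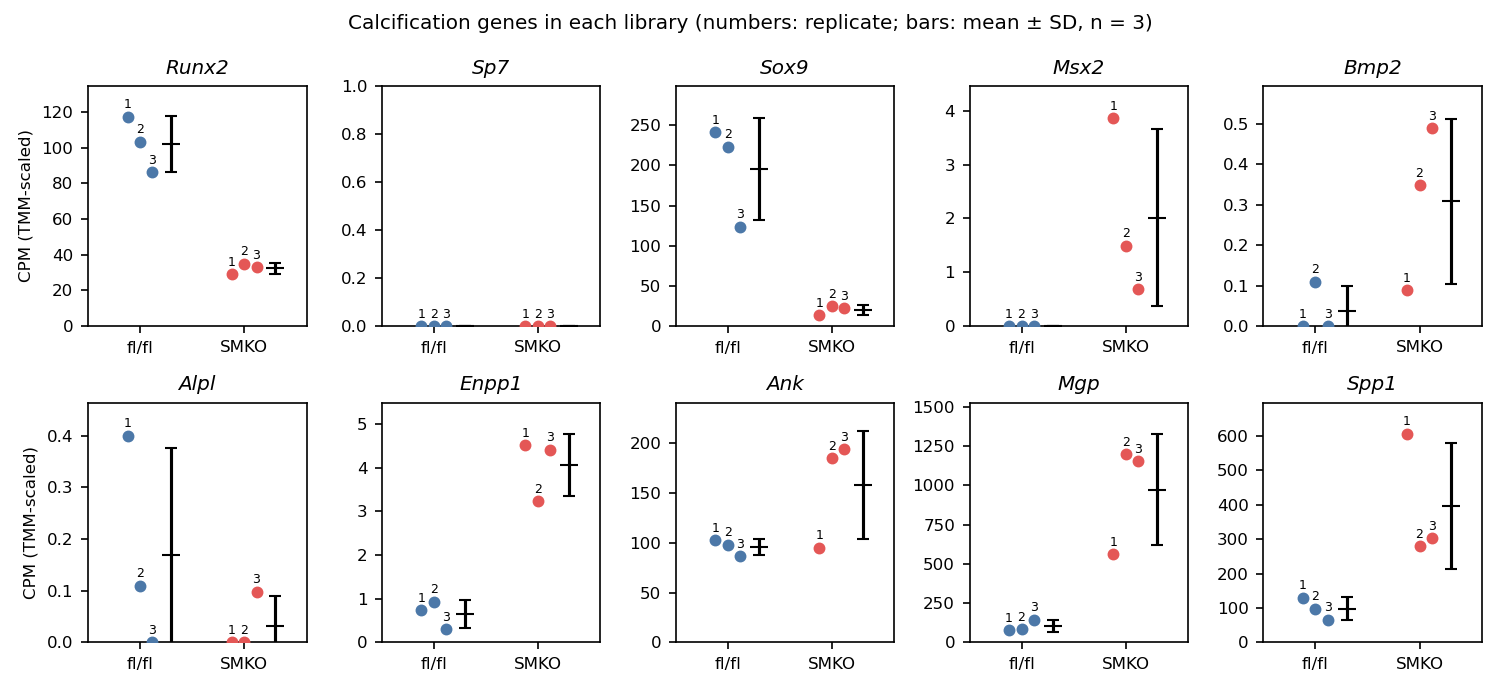
TMM-scaled CPM of each of the 10 genes (y axis, own scale per gene) in the 3 Pdk4fl/fl (blue) and 3 Pdk4SMKO (red) cultures, with the replicate number at each point and the mean ± SD beside it. Runx2 and Sox9 lie lower and Msx2, Enpp1, Mgp and Spp1 higher in every SMKO culture, while Sp7 is at 0 throughout and SMKO replicate 1 lies among the fl/fl values for Ank.

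*Runx2* and *Sox9*, the lead regulators of bone and cartilage, were both lower in *Pdk4*SMKO cells. *Runx2* (MGP_C57BL6NJ_G0024189, chromosome 17 from 47455662 to 47794866 on the C57BL/6NJ strain assembly, as are all gene positions here) was at 117, 103 and 86.0 CPM in *Pdk4*fl/fl and 29.1, 34.8 and 33.1 CPM in *Pdk4*SMKO cells. Every *Pdk4*SMKO culture lay under every *Pdk4*fl/fl culture, and the former lay closer together. The means were 102 ± 15.7 (SD, n = 3) and 32.3 ± 2.96 (SD, n = 3) CPM, 3.16-fold lower (log2 fold change -1.66, standard error 0.15, edgeR quasi-likelihood adjusted p = 2.965e-06). The span of *Runx2* overlaps that of *Supt3* and of antisense transcripts, and whether the counting used strand is not given in the sources used here. *Supt3* had 279 to 497 counts per library and the antisense *Runx2os1* 2 to 31, against 662 to 1879 for *Runx2*.

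*Sox9* (MGP_C57BL6NJ_G0019740, chromosome 11 from 120048049 to 120053585) was at 241, 224 and 124 CPM in *Pdk4*fl/fl and 13.2, 25.0 and 22.3 CPM in *Pdk4*SMKO cells. *Pdk4*fl/fl replicate 3 was the lowest of its genotype and still stood above all *Pdk4*SMKO cultures. The means, 196 ± 63.5 and 20.2 ± 6.17 CPM (SD, n = 3 each), differed 9.72-fold (log2 fold change -3.28, standard error 0.30, edgeR quasi-likelihood adjusted p = 3.491e-06). For both regulators an exact two-sided permutation test gave p = 0.1, the smallest that 3 cultures against 3 allow.

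*Sp7* (MGP_C57BL6NJ_G0022826, chromosome 15 from 108404352 to 108413936), which acts after *Runx2* in osteoblasts, had 0 counts in all 6 libraries. It was therefore not detectable at this depth in either genotype. *Msx2* (MGP_C57BL6NJ_G0020946, chromosome 13 from 54422864 to 54430603), a homeobox factor induced by BMP, had 0 counts in each *Pdk4*fl/fl library and 88, 30 and 14 counts in the *Pdk4*SMKO libraries. These counts are 3.86, 1.49 and 0.687 CPM, so *Msx2* was present in every *Pdk4*SMKO culture but varied widely among them. Against a floor of 3 counts per library *Msx2* was at least 10.2-fold higher in *Pdk4*SMKO cells, and at least 5.53-fold higher without *Pdk4*SMKO replicate 1. It passed the filter only through its *Pdk4*SMKO counts, so edgeR's test could call it in 1 direction only and its p is not given. An exact two-sided permutation test gave p = 0.1 for *Msx2*, the smallest possible with these cultures. *Bmp2* (MGP_C57BL6NJ_G0026972, chromosome 2 from 141374428 to 141387660), a ligand that induces bone formation, was counted 0, 2 and 0 times in *Pdk4*fl/fl against 2, 7 and 10 times in *Pdk4*SMKO libraries. The genotypes overlapped at these low counts, with a depth-scaled ratio of 6.97 (95% counting interval 1.68 to 61.7), an exact two-sided permutation p of 0.2 and an adjusted p of 0.056 when edgeR was run without the filter.

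Of the 3 genes that set extracellular pyrophosphate, *Enpp1* was higher in *Pdk4*SMKO cells, *Alpl* was near the floor in both genotypes and *Ank* did not pass the threshold. *Enpp1* (MGP_C57BL6NJ_G0017491, chromosome 10 from 23320086 to 23398271), whose enzyme makes pyrophosphate, was counted 11, 17 and 4 times in *Pdk4*fl/fl against 103, 65 and 90 times in *Pdk4*SMKO libraries. All *Pdk4*SMKO cultures lay above all *Pdk4*fl/fl cultures, though the gene was sparse in both. It averaged 0.657 ± 0.322 and 4.06 ± 0.715 CPM (SD, n = 3 each), 6.18-fold higher in *Pdk4*SMKO cells (log2 fold change 2.58, standard error 0.40, edgeR quasi-likelihood adjusted p = 0.00017). *Alpl* (MGP_C57BL6NJ_G0029411, chromosome 4 from 145402767 to 145461277), whose enzyme breaks pyrophosphate down, was counted 6, 2 and 0 times in *Pdk4*fl/fl against 0, 0 and 2 times in *Pdk4*SMKO libraries. It was near the floor throughout, and the genotypes overlapped. The depth-scaled ratio was 5.45-fold lower in *Pdk4*SMKO cells (95% counting interval 1.09 to 52.7), with an exact two-sided permutation p of 0.4 and an adjusted p of 0.219 in edgeR without the filter.

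*Ank* (MGP_C57BL6NJ_G0022162, chromosome 15 from 26579698 to 26715700), which carries pyrophosphate out of the cell, was at 103, 98.0 and 86.3 CPM in *Pdk4*fl/fl and 95.3, 185 and 194 CPM in *Pdk4*SMKO cells. *Pdk4*SMKO replicate 1 lay within the *Pdk4*fl/fl range, and the other two lay at about the same raised level. With means of 95.7 ± 8.49 and 158 ± 54.6 CPM (SD, n = 3 each), *Ank* had an adjusted p of 0.0156 in edgeR's quasi-likelihood test but a log2 fold change of 0.72 (standard error 0.23), under the limit for a call, and an exact two-sided permutation p of 0.3. Its log2 fold change was 0.99 without *Pdk4*SMKO replicate 1, and 1.32, past the threshold, with scaling by library size alone. Without *Pdk4*SMKO replicate 2 or 3 its adjusted p in edgeR's test was 0.054 and 0.0614.

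Both secreted inhibitors were higher in *Pdk4*SMKO cells and had the highest levels per gene length of the 10 genes. *Mgp* (MGP_C57BL6NJ_G0031874, chromosome 6 from 145213098 to 145216486) was at 77.3, 86.4 and 145 CPM in *Pdk4*fl/fl and 563, 1197 and 1153 CPM in *Pdk4*SMKO cells. Even the lowest *Pdk4*SMKO culture, replicate 1, held several times the level of any *Pdk4*fl/fl culture. The means, 103 ± 36.9 and 971 ± 354 CPM (SD, n = 3 each), differed 9.43-fold (log2 fold change 3.24, standard error 0.33, edgeR quasi-likelihood adjusted p = 7.727e-06). Among 7 tested fibroblast markers 3 were higher and 1 lower, against 32.8% higher and 26.5% lower among all tested genes. Summed over all 8 listed genes, these markers were at 131 to 162 CPM in *Pdk4*fl/fl and 522 to 1041 CPM in *Pdk4*SMKO cells. The higher ones were *Dcn*, the matrix proteoglycan decorin (92.7 and 434 CPM), *Lum* (0.300 and 6.03 CPM) and *Ly6a* (9.27 and 378 CPM), and the lower one was *Dpt* (21.1 and 10.5 CPM, log2 fold change -1.02). *Dpt* was under the fold limit with *Pdk4*fl/fl replicate 3 left out (-0.87), with *Pdk4*SMKO replicate 1 left out (-0.78), with upper-quartile scaling (-0.81), with library size alone (-0.41), with no filter (-0.97) and with a minimum of 10 counts per library (-0.92). *Pdgfra*, *Pi16* and *Col15a1* did not pass the threshold. The part of such cells in the *Mgp* result was not tested.

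*Spp1* (MGP_C57BL6NJ_G0030245, chromosome 5 from 110463135 to 110469067) was at 130, 98.5 and 65.8 CPM in *Pdk4*fl/fl and 607, 279 and 304 CPM in *Pdk4*SMKO cells. The genotypes did not overlap, and *Pdk4*SMKO replicate 1 was far above the other two. Means of 98.2 ± 32.3 and 397 ± 182 CPM (SD, n = 3 each) gave a 4.04-fold difference (log2 fold change 2.01, standard error 0.32, edgeR quasi-likelihood adjusted p = 0.000215), and the log2 fold change was 1.58 without that culture. *Spp1* is also strongly expressed by macrophages. Of 8 macrophage markers 6 were tested, with 5 higher and 1, *Cd68*, lower in *Pdk4*SMKO cells, against 32.8% higher and 26.5% lower among all tested genes. *Ptprc* and *Fcer1g* had too few counts to be tested. *Adgre1*, *C1qa*, *C1qb* and *Tyrobp* had 0 counts in every *Pdk4*fl/fl library. In *Pdk4*SMKO libraries *C1qb*, a complement component made by macrophages, had 170, 69 and 42 counts. The summed level of the list, most of it *Cd68* in *Pdk4*fl/fl cells, was 21.6 to 38.0 CPM in *Pdk4*fl/fl and 10.2 to 31.8 CPM in *Pdk4*SMKO cells. The part of macrophages in the *Spp1* result was not tested.

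*Pdk4*SMKO replicate 1 stood apart from the other two in several of these genes. Relative to the mean of replicates 2 and 3, it held 3.55 times the level of *Msx2* and 2.08 times that of *Spp1*, but 0.479 times that of *Mgp*, 0.503 times that of *Ank* and 0.559 times that of *Sox9*. *Enpp1* and *Runx2* were closer to even, at 1.18 and 0.856 times. In the same culture the summed macrophage markers were 2.66 times, the mesothelial markers 1.71 times, the contractile markers 1.22 times and the fibroblast markers 0.509 times the level of the others. What sets this culture apart was not tested. It also parted the inhibitors, since log2 CPM (prior count 2) of *Spp1* minus *Mgp* was 0.11 there and -2.10 and -1.92 in replicates 2 and 3. In *Pdk4*fl/fl cultures the same difference was 0.75, 0.19 and -1.14, so the genotypes overlapped.

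**Figure D2:**
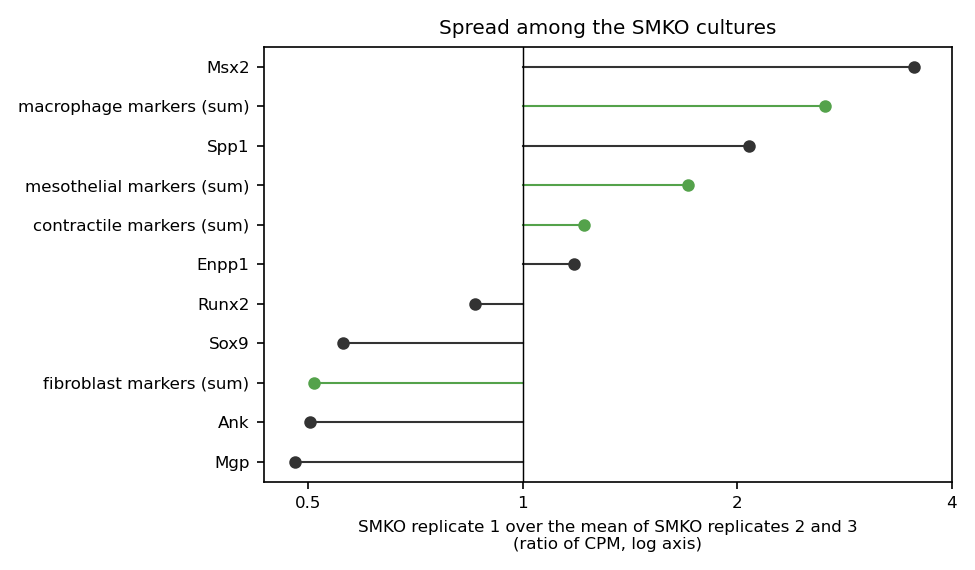
CPM in Pdk4SMKO replicate 1 divided by the mean of Pdk4SMKO replicates 2 and 3 (log axis), for the 7 tested calcification genes (dark) and the summed CPM of 4 marker lists (green). Msx2, Spp1 and the macrophage markers lie above 2, while Mgp, Ank, Sox9 and the fibroblast markers lie under 0.6.

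Per kilobase of gene length (RPKM, from the deposited lengths), *Mgp*, *Spp1* and *Sox9* led in *Pdk4*fl/fl cells at 86.8, 59.6 and 47.4, and the ranges of neighbours among these 3 overlapped. *Ank* followed at 26.5 and *Runx2* at 11.2 RPKM, each apart from its neighbours, and the other 5 genes were under 0.1 RPKM. In *Pdk4*SMKO cells *Mgp* reached 818, *Spp1* 241 and *Ank* 43.8 RPKM, with ranges that did not overlap. *Sox9* and *Runx2* followed at 4.88 and 3.53 RPKM with overlapping ranges, so *Sox9* passed from above *Ank* to below it. *Msx2* and *Enpp1* were at 0.607 and 0.395 RPKM, *Bmp2* at 0.0869 and *Alpl* at 0.0081 RPKM.

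The wider calcification pathways were read through 5 lists of further genes. The counts of each list stand beside 26.5% lower and 32.8% higher among all tested genes. Of 12 other osteochondrogenic regulators 8 were tested, with 3 lower, 3 higher and 2 not past the threshold (median log2 fold change -0.08). *Runx3* and *Runx1*, the relatives of *Runx2*, went opposite ways. *Runx3* was at 17.5 ± 4.56 CPM in *Pdk4*fl/fl cells and had at most 3 counts in any *Pdk4*SMKO library, at least 123-fold lower, while *Runx1* rose from 11.7 to 32.9 CPM (log2 fold change 1.48). *Atf4*, a stress-response factor that osteoblasts need for matrix synthesis, fell from 1171 ± 42.4 to 219.5 ± 6.34 CPM (log2 fold change -2.42). *Dlx5*, a BMP-induced homeobox factor upstream of *Sp7*, was counted 53, 56 and 32 times in *Pdk4*fl/fl but not once in *Pdk4*SMKO libraries, at least 21.1-fold lower. *Sox5*, a partner of *Sox9* in cartilage, rose from 2.52 to 19.4 CPM (log2 fold change 2.93) as *Sox9* itself fell.

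Matrix genes of bone and cartilage also moved in both directions. Of 15 listed, 14 have a row in the table and 7 were tested, with 1 lower, 4 higher and 2 not past the threshold (median log2 fold change 2.28). The type I collagen genes rose, *Col1a1* from 620 ± 125 to 5901 ± 1146 CPM (log2 fold change 3.25) and *Col1a2* from 545 ± 71.5 to 3212 ± 447 CPM (log2 fold change 2.56). Type I collagen is also the main collagen of fibroblasts and smooth muscle. Of the SOX9 targets in cartilage, *Acan* (aggrecan) fell from 4.70 to 0.26 CPM (log2 fold change -4.11, and -4.91 without *Pdk4*SMKO replicate 1, which held 11 of its counts against 4 and 2 in the other libraries) and *Col2a1* rose from 0.788 to 3.84 CPM (log2 fold change 2.28). *Ibsp*, *Dmp1*, *Mepe* and *Bglap2*, genes of mineralizing cells, had 0 counts in all 6 libraries, as did the cartilage gene *Matn1*. *Bglap* is the listed gene without a row. *Omd*, a further matrix gene of the list, rose from 0.267 to 5.40 CPM (log2 fold change 4.25), with 2, 8 and 3 counts in *Pdk4*fl/fl libraries.

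Of 12 genes of phosphate and pyrophosphate handling 9 were tested, with 2 lower, 4 higher and 3 not past the threshold (median log2 fold change 0.56). The phosphate importers of the SLC20 family went opposite ways: *Slc20a1* (PiT-1) fell from 577 ± 27.6 to 50.7 ± 17.2 CPM (log2 fold change -3.51), and *Slc20a2* (PiT-2) rose from 23.7 ± 5.06 to 155 ± 7.39 CPM (log2 fold change 2.71). *Nt5e*, the ecto-enzyme that makes adenosine from the AMP that ENPP1 leaves, rose from 0.609 to 8.34 CPM (log2 fold change 3.74). *Smpd3*, a sphingomyelinase needed for normal bone mineralization, rose from 15.8 ± 3.32 to 185 ± 99.3 CPM (log2 fold change 3.55). *Enpp2*, the autotaxin gene and a relative of *Enpp1* that makes lysophosphatidic acid rather than pyrophosphate, fell from 58.4 ± 10.5 to 0.489 ± 0.131 CPM (log2 fold change -6.88).

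Among 15 other calcification inhibitors and their helpers 10 were tested, with 1 lower, 4 higher and 5 not past the threshold (median log2 fold change 0.25). *Ggcx*, the carboxylase that activates matrix Gla protein, fell from 92.7 ± 5.13 to 45.2 ± 2.91 CPM (log2 fold change -1.04) as *Mgp* rose, and it was under the fold limit under 5 of the alternatives, among them -0.995 without *Pdk4*SMKO replicate 1. *Vkorc1l1* and *Nqo1*, which can reduce vitamin K for that enzyme, rose to 43.8 and 26.6 CPM (log2 fold changes 1.87 and 2.17). *Vkorc1*, of the same list, did not pass the threshold at 2.64 and 1.99 CPM (log2 fold change -0.40, edgeR quasi-likelihood adjusted p = 0.44), and the genotypes overlapped. The stanniocalcins, secreted regulators of calcium and phosphate, were nearly absent from *Pdk4*fl/fl cells. *Stc1* had no count there and 12.4 ± 2.21 CPM in *Pdk4*SMKO cells, at least 62.8-fold higher, and *Stc2* had 2, 0 and 0 against 921, 811 and 940 counts, a depth-scaled ratio of 981 (95% counting interval 271 to 8101). That ratio rests on the 2 counts of *Pdk4*fl/fl replicate 1. The fitted log2 fold change of *Stc2* was 9.73 with all libraries, 12.64 without that replicate, where no *Pdk4*fl/fl count was left, and 9.10 without *Pdk4*fl/fl replicate 2. *Tnfrsf11b* (osteoprotegerin) did not pass the test at 40.8 ± 1.89 and 31.1 ± 11.1 CPM (log2 fold change -0.39, edgeR quasi-likelihood adjusted p = 0.125), and its sign turned with scaling by library size alone, at 0.22.

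Of 24 other genes of the BMP pathway 21 were tested, with 12 higher, 1 lower and 8 not past the threshold (median log2 fold change 1.65). Among all tested genes, 32.8% were higher, 26.5% lower and 59.3% called in either direction. The direct BMP targets *Id1* and *Id3*, which block differentiation factors of the helix-loop-helix family, rose from 11.8 ± 2.73 to 141 ± 18.2 CPM and from 22.9 ± 0.729 to 167 ± 31.8 CPM (log2 fold changes 3.57 and 2.87). *Id2* and *Id4* also rose (log2 fold changes 2.26 and 2.18), as did *Msx2*, itself a BMP target. *Dlx5*, described above as induced by BMP, went the other way, at least 21.1-fold lower. The value of *Id4*, with at most 7 counts per *Pdk4*fl/fl library, was 2.87 without *Pdk4*fl/fl replicate 2. The inhibitory SMADs went opposite ways: *Smad6* rose from 4.32 ± 0.576 to 51.4 ± 8.07 CPM (log2 fold change 3.57) and *Smad7* fell from 236 ± 43.6 to 74.4 ± 15.2 CPM (log2 fold change -1.67). The receptor gene *Bmpr2* and the signal carrier *Smad5* rose to 142 and 83.9 CPM (log2 fold changes 1.80 and 1.65). Secreted antagonists that bind BMP rose as well, *Grem1* from 22.1 ± 9.55 to 275 ± 96.3 CPM and *Chrd* from 4.01 ± 0.684 to 80.9 ± 22.98 CPM (log2 fold changes 3.63 and 4.32). The ligand *Bmp4* was at 84.5 ± 17.5 and 51.2 ± 4.29 CPM, with a log2 fold change of -0.72 that is under the limit for a call.

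**Figure D3:**
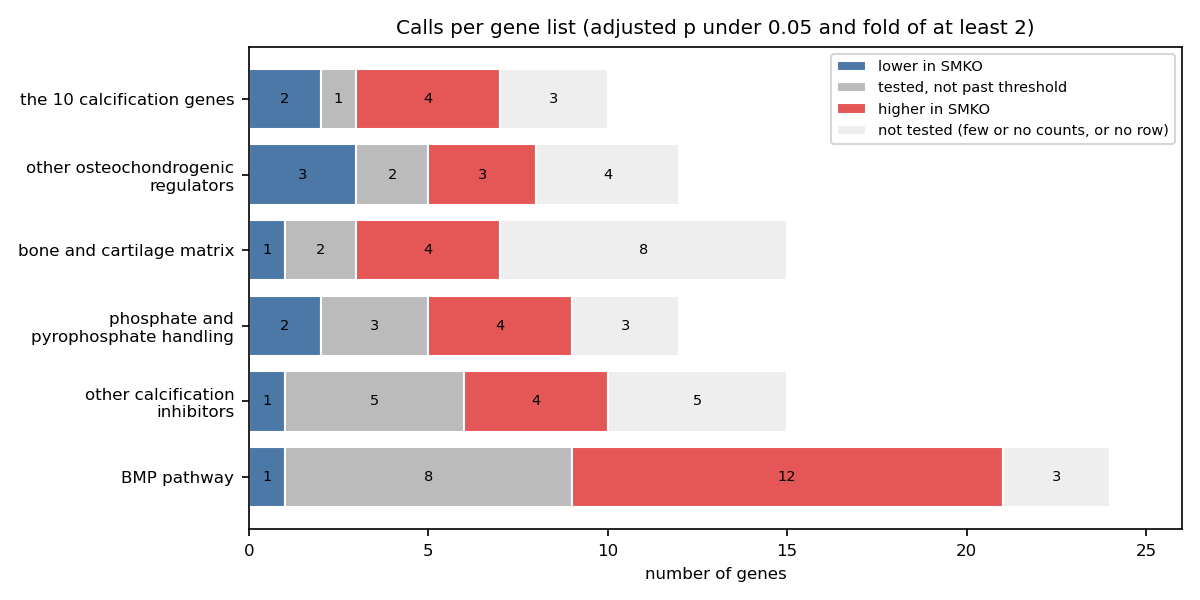
Number of genes (x axis) lower, higher or not past the threshold in Pdk4SMKO cells, and not tested, among the 10 calcification genes and 5 lists of related genes. The BMP list has 12 higher and 1 lower gene, whereas the other osteochondrogenic regulators have 3 of each. Among all tested genes, 32.8% were higher and 26.5% lower.

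**Figure D4:**
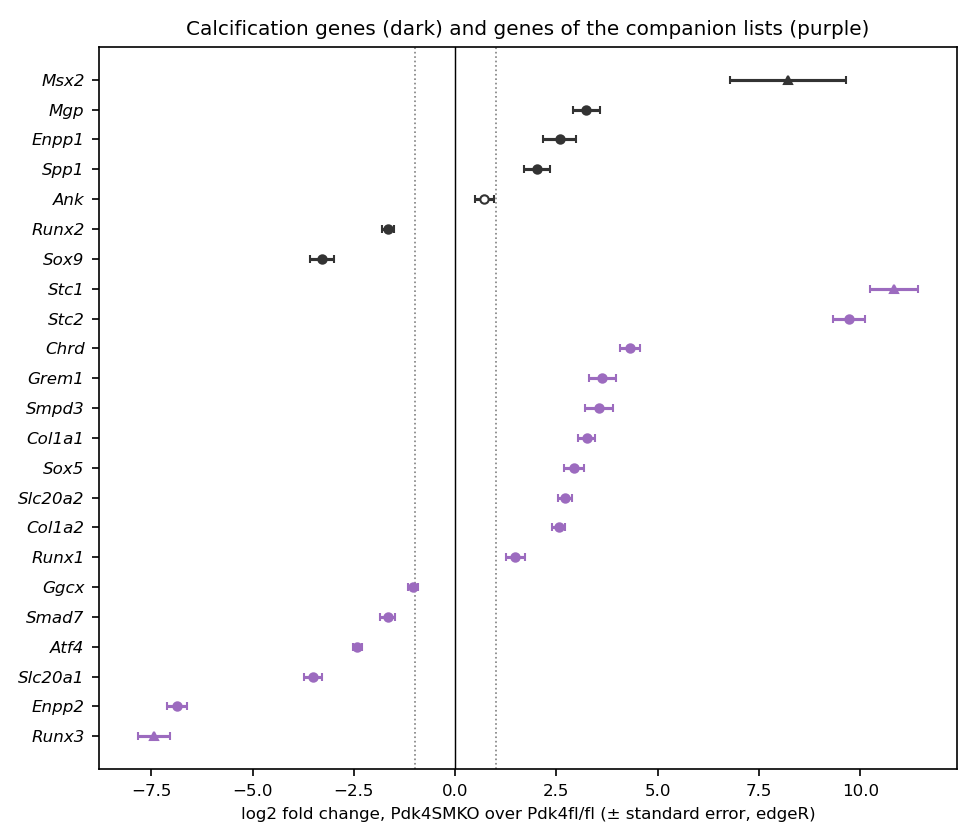
Log2 fold change of Pdk4SMKO over Pdk4fl/fl (x axis, ± standard error from edgeR) for the 7 tested calcification genes (dark) and the companion genes with the largest calls (purple). Dotted lines mark the fold limit of 2, and the open point is Ank. Triangles are Msx2, Runx3 and Stc1, with at most 3 counts in every library of a genotype, whose fitted value is not a bound. Stc2 is drawn as a circle, but it had 2, 0 and 0 counts in Pdk4fl/fl cells, and its fitted value is not a bound either. Runx2 and Sox9 lie to the left and Msx2, Mgp, Enpp1 and Spp1 to the right.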

How the data were processed

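RNA-seq counts of 6 MASMC libraries, 3 per genotype as labelled, were analysed. Raw counts per gene were deposited as whole numbers by the authors, in a single table. The identifiers are those of the C57BL/6NJ strain annotation except for 625 genes, while the submitters' processing notes name GRCm39. Aligner, counting program and use of strand are not given in the sources used here, and the labels and methods name different library kits (SMARTER and NEBNext Ultra). Reads split between overlapping or near-identical genes could move single values.

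Counts were filtered with filterByExpr, scaled by TMM and tested on genotype alone with edgeR's quasi-likelihood test (edgeR 4.0.16, R 4.3.3) and Benjamini-Hochberg adjustment over 14085 genes. Unless stated otherwise, every gene said to have risen or fallen had an adjusted p under 0.05 and a fold of at least 2 in this test. DESeq2 1.42.0, which the authors used, was an alternative, as were other scalings, filters and thresholds, protein-coding genes alone, a replicate block and leaving out each library. On simulated counts edgeR recovered 198 of 200 changed genes with 4 false calls among 13980, and 0 of 13986 were called with none changed. Those 200 genes were changed equally in both directions, whereas 59.3% of tested genes were called in these data. The simulation therefore cannot give the rate of false calls, or the effect of scaling, under so wide a difference. Named were the 10 genes, *Pdk4* and, per list, the called genes with the 2 most negative and 2 most positive log2 fold changes, at least 10 CPM and no overlap. Other list genes named were chosen after their values were seen. The 10 genes, the lists and the tests were chosen with earlier results of these data known. Promoter sequences came from RefSeq (GRCm38.p6) and no coordinates were moved between assemblies.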

Additional observations from a re-analysis of the deposited data

How the results depend on the processing

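The calls of *Runx2*, *Sox9*, *Mgp* and *Spp1* kept their direction and their side of the threshold under every alternative run, DESeq2 included. Requiring at least 10 counts in every library removed *Msx2* and *Enpp1*, leaving 2 of the 10 genes higher, and left 1 lower regulator, 0 lower and 2 higher matrix genes, 1 lower phosphate gene, and 0 lower and 2 higher inhibitors. The lower inhibitor, *Ggcx*, was also lost (0 lower) with upper-quartile scaling, library size alone and no filter, and leaving out libraries gave 0 to 1. With no limit on the fold change, 2 matrix genes, 2 inhibitors and 3 BMP genes were lower and *Ank* was called at 0.72. With library size alone 2390 genes were lower, *Ank* was called at 1.32 and *Tnfrsf11b* reversed to 0.22. Library size alone raised the log2 fold change of the median gene by 0.60, upper-quartile scaling by 0.21, the 10-count minimum by 0.099 and no filter by 0.048. *Ggcx*, at -1.04 in the main fit, was at -0.43, -0.83, -0.94 and -0.99 under these settings, in the same order. The cause of the other moves was not tested. *Entpd1*, a higher phosphate gene, fell under the limit with *Pdk4*fl/fl replicate 3 left out (0.92) and with *Pdk4*SMKO replicate 1 left out (0.98). The replicate numbers were not treated as pairs. Deviations of same-numbered cultures correlated at 0.040, 0.060 and 0.18. *Pdk4*fl/fl replicates 2 and 3 correlated best with the *Pdk4*SMKO culture of the same number. *Pdk4*fl/fl replicate 1 correlated best with *Pdk4*SMKO replicate 2, at 0.043 against 0.040. With the replicate number as a block, 8281 genes were called against 8349, and 2 lower and 4 higher of the 10. Depth limits *Sp7*, *Bmp2* and *Alpl*, whose counts lay near or under the floor.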

Other observations

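Some genes of the lists had too few counts to be tested and still lay apart between the genotypes. They were chosen after their values were seen and are given as counts alone. *Nog*, the BMP antagonist noggin, had no count in *Pdk4*fl/fl cells against 66, 27 and 6 counts in *Pdk4*SMKO cells. *Col10a1*, the collagen of hypertrophic cartilage, had 1, 1 and 0 against 28, 9 and 8 counts. *Ahsg*, which encodes the serum calcification inhibitor fetuin-A, had 1, 2 and 2 against 9, 29 and 37 counts. *Dlx6*, the neighbour and relative of *Dlx5*, had 3, 4 and 1 against 0, 0 and 0 counts.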
